A study of Mus musculus with 4 samples.

Results

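Vgf, the granins and the enzymes that process prohormones were followed through brain RNA of newborn mice lacking CIC (capicua), an HMG-box repressor of transcription that ERK signalling relieves. The group holds the 10 rows of the deposited gene table named Vgf, Chga, Chgb, Scg2, Scg3, Scg5, Pcsk1, Pcsk1n, Pcsk2 and Cpe, out of 20793 rows in all. Each of the 10 names stood on 1 row, and all 10 passed the filter of a mean of 1 FPKM or more, which left 12703 rows to test. FPKM counts fragments scaled by transcript length and by the mapped fragments of the library, so levels of different genes can be set side by side.

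The series compared 2 CIC knockout libraries with 2 wild-type (WT) libraries, all from mouse brain at postnatal day 1 and each pair lettered A and B. The knockout genotype is given as Nes-Cre;CIClox/lox, in which Cre driven by Nestin regulatory sequence acts in neural progenitors and their progeny on a loxP-flanked Cic gene, so that cells outside that lineage keep it. For WT, the genotype field gives Nes-Cre;CIC+/+, whereas the titles describe Cre-negative animals with the floxed allele, so these labels conflict. Groups were therefore taken from the plain wording of the description field. If the titles hold, presence of Cre differs between the groups together with loss of Cic, and their effects cannot be told apart. Nothing in the labels says that each library is a different animal, and p-values here speak only of the spread among the 4 samples. Cic had 19.1 and 22.2 FPKM in the knockout libraries, against 51.3 and 56.4 FPKM in the WT libraries. Relative depth, read from the lowest values, lay between 1 and 1.21, and total depth is unknown. The knockout libraries were less alike than the WT libraries, with a median absolute log2 difference over all tested rows of 0.19 within the knockout pair and 0.07 within the WT pair.

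Neurons and endocrine cells keep peptide signals in dense-core vesicles, which bud from the Golgi and release their content on calcium entry. Granins are acidic proteins that aggregate in these vesicles, help to sort cargo into them and are themselves cut into peptides. Convertases cut precursors after pairs of basic residues, and carboxypeptidase E then trims the basic residues that remain. In brain, Vgf is known as a gene induced by neurotrophins and by activity, and its products act on energy balance and on synapses.

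Vgf stood far apart from the other 9 genes in the knockout libraries, where 9 of the 10 genes exceeded the WT pair and Pcsk2 lay under it. Vgf averaged 68.8 ± 15.2 FPKM in knockout brain and 15.0 ± 1.55 FPKM in WT brain (SD, n = 2 each), a ratio of 4.59. Scg2 followed with a ratio of 1.63 and Pcsk1n with 1.44, and the other 7 ratios lay between 0.892 for Pcsk2 and 1.21 for Chgb. None of the 10 genes passed limma's test over all rows at an adjusted p of 0.05, which called 6 of 12703 rows (0.0472%). At an unadjusted p under 0.05 limma gave 4 of the 10 genes (Vgf, Scg2, Pcsk1n and Cpe), all with the knockout higher, against 6.61% of all rows with the knockout higher and 10.2% in either direction. The groups did not overlap for any of the 10, with the knockout pair on the higher side for 9 (27.1% of all rows) and on the lower side for 1 (21.7% of all rows), so lack of overlap alone is common in this table.

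**Figure D1:**
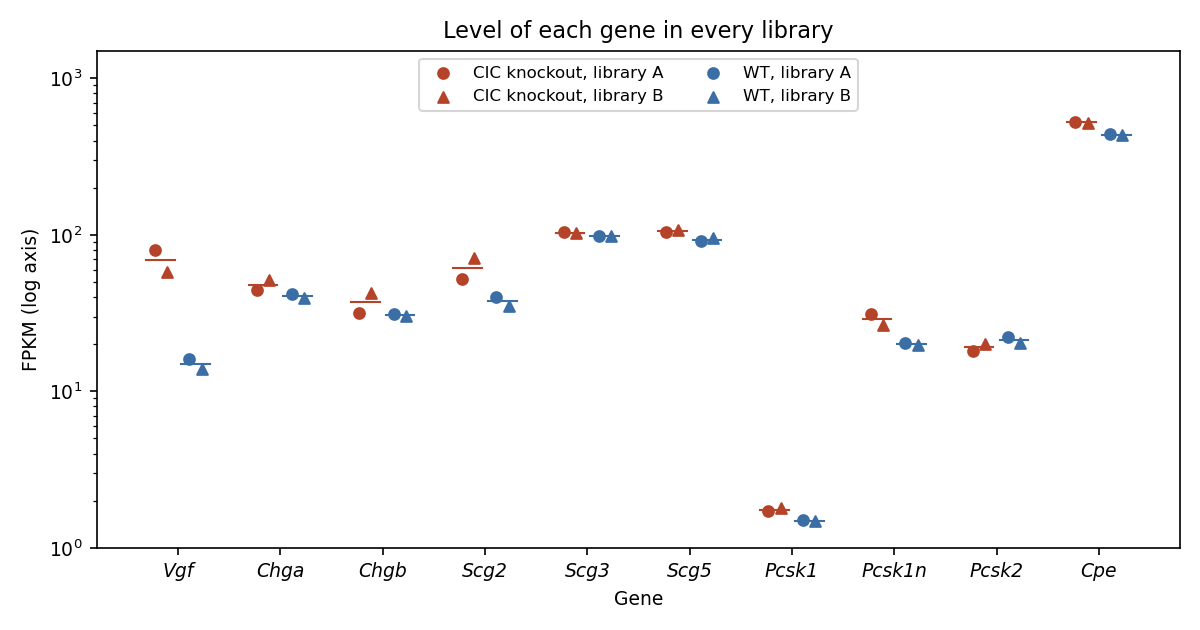
FPKM (log axis) of each of the 10 genes in every library, with circles for library A, triangles for library B and a short line at the mean of each pair. Vgf has 79.5 and 58.0 FPKM in the CIC knockout libraries, against 16.1 and 13.9 FPKM in the WT libraries, whereas the pairs of most other genes lie close together.

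Vgf encodes a secreted granin-like precursor that is cut into several neuropeptides (mm9, chromosome 5, 137506165 to 137509221). It had 79.5 FPKM in knockout A and 58.0 FPKM in knockout B, against 16.1 FPKM in WT A and 13.9 FPKM in WT B. The lower knockout library was thus well above the higher WT library. Its level exceeded that of 95.1% and 93.1% of all rows in the knockout libraries, against 74.4% and 71.8% in the WT libraries. The log2 difference, knockout minus WT on the log2(FPKM + 1) scale, was 2.11 ± 0.18 (SE), with a 95% interval of 1.63 to 2.60. Limma's adjusted p was 0.213, short of the threshold, although the gene ranked place 8 of 12703 by p and place 14 by size of difference. With knockout A left out the log2 difference of Vgf was 1.89, and with knockout B left out it was 2.34. Each of these fits has 1 knockout library left and takes its spread from the WT pair.

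Chromogranins A and B and secretogranin II are the classical granins of the vesicle core, and Scg2 differed most among them. Scg2, the precursor of secretoneurin (chromosome 1, 79431244 to 79436665), had 52.4 and 70.6 FPKM in the knockout libraries, against 40.1 and 35.3 FPKM in the WT libraries. The knockout pair spread more widely than the WT pair without touching it. The log2 difference was 0.68 ± 0.17 (SE, 95% interval 0.22 to 1.14), with limma's adjusted p of 0.442. Chga, which encodes chromogranin A (chromosome 12, 103793179 to 103803237), had 44.2 and 51.1 FPKM in the knockout libraries, against 42.0 and 39.6 FPKM in the WT libraries. Chgb, which encodes chromogranin B (chromosome 2, 132607014 to 132620808), had 31.6 and 42.5 FPKM in the knockout libraries, against 31.2 and 30.3 FPKM in the WT libraries. For both chromogranins knockout A sat just above the WT pair and knockout B clearly higher. The log2 difference of Chga was 0.22 ± 0.11 (SE, interval -0.09 to 0.52, limma's adjusted p 0.547). For Chgb it was 0.25 ± 0.16 (interval -0.18 to 0.68, limma's adjusted p 0.576), and without knockout B it was 0.04. Without knockout A the log2 differences of Chga, Chgb, Scg2 and Pcsk1n were 0.32, 0.46, 0.89 and 0.39. Without knockout B those of Chga, Scg2 and Pcsk1n were 0.11, 0.47 and 0.60. Each of these fits has 1 knockout library, and its spread comes from the WT pair. The cause of the differences between the knockout libraries was not tested. With both libraries of each group kept, limma called none of these 4 genes under any alternative.

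Secretogranin III, which binds cholesterol-rich vesicle membrane and chromogranin A, hardly differed between the groups. Scg3 (chromosome 9, 75491173 to 75531863) had 103.6 and 102.4 FPKM in the knockout libraries, against 98.7 and 98.2 FPKM in the WT libraries. The pairs were tight and lay close to each other. Its log2 difference was 0.06 ± 0.09 (SE), with a 95% interval of -0.17 to 0.30 and limma's adjusted p of 0.763.

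The convertases have dedicated binding proteins among the granin-like genes, and one of these differed more than its enzyme. Pcsk1n encodes proSAAS, which inhibits the enzyme made from Pcsk1 (X chromosome, 7496948 to 7501536). It had 31.0 and 26.7 FPKM in the knockout libraries, against 20.4 and 19.6 FPKM in the WT libraries. The pairs were well separated, with a log2 difference of 0.50 ± 0.11 (SE, interval 0.20 to 0.80) and limma's adjusted p of 0.424. The Eras row overlaps the Pcsk1n locus, and its highest value was 0.102 FPKM; the other 9 genes overlap no other row of the table. Scg5 encodes the chaperone and inhibitor of the enzyme made from Pcsk2 (chromosome 2, 113616470 to 113669248). It had 103.9 and 108.0 FPKM in the knockout libraries, against 91.4 and 95.3 FPKM in the WT libraries. The gap between the pairs was wider than the spread within either, and the log2 difference was 0.18 ± 0.09 (SE, interval -0.06 to 0.42, limma's adjusted p 0.539).

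Pcsk1 and Pcsk2, the convertases of the regulated secretory pathway, lay on opposite sides of WT by small margins. Pcsk1 (chromosome 13, 75227435 to 75269946) had 1.72 and 1.79 FPKM in the knockout libraries, against 1.51 and 1.48 FPKM in the WT libraries. It was the scarcest of the 10 genes in both groups, and its log2 difference of 0.14 ± 0.09 (SE, interval -0.09 to 0.38) is understated at so low a level. With a pseudocount of 0.1 in place of 1 the difference was 0.22, and limma's adjusted p was 0.569 with the first and 0.536 with the second. Pcsk2 (chromosome 2, 143371869 to 143642018) had 18.2 and 19.99 FPKM in the knockout libraries, against 22.4 and 20.4 FPKM in the WT libraries. Knockout B and WT B nearly met, and the log2 difference was -0.16 ± 0.11 (SE, interval -0.44 to 0.12, limma's adjusted p 0.578). Pcsk2 RNA exceeded Pcsk1 RNA 10.5-fold and 11.2-fold in the knockout libraries, against 14.8-fold and 13.8-fold in the WT libraries.

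Cpe, the exopeptidase that trims peptides after the convertases, was the most abundant of the 10 genes in every library (chromosome 8, 67071349 to 67171837). It had 522 FPKM in each knockout library, against 440.2 and 431 FPKM in the WT libraries. The knockout libraries were almost equal and both lay above the WT pair. The log2 difference was 0.26 ± 0.09 (SE, interval 0.03 to 0.49), with limma's adjusted p of 0.485.

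**Figure D2:**
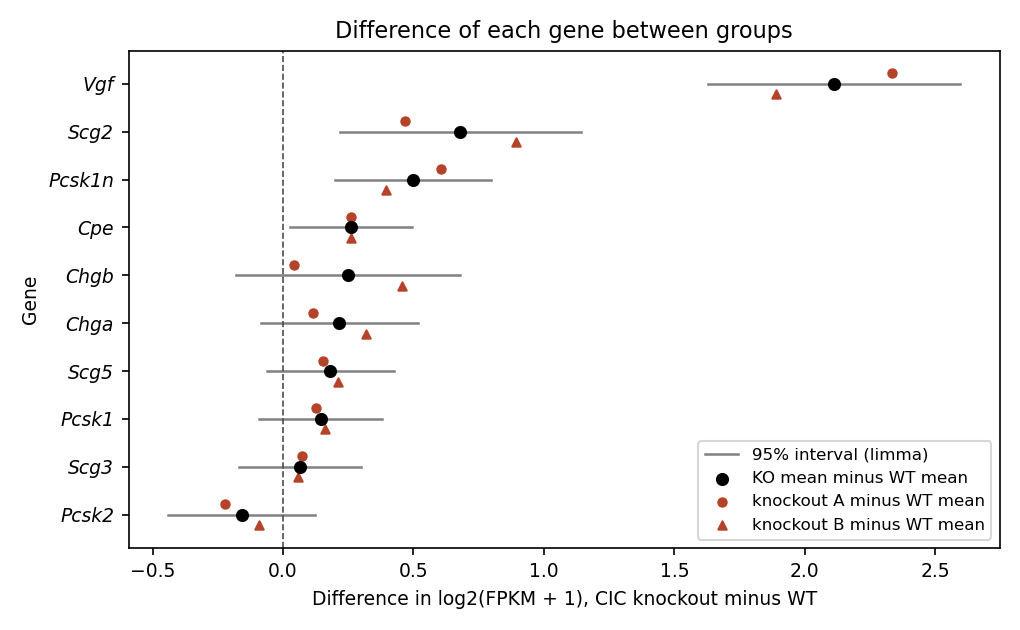
Difference in log2(FPKM + 1), CIC knockout minus WT, for each gene: black points show the difference of the means with limma's 95% interval (grey line), and red points show each knockout library against the WT mean. Vgf stands at 2.11, Scg2 at 0.68 and Pcsk1n at 0.50, and only Pcsk2, at -0.16, lies below 0.

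Within the knockout pair the genes did not move together. Vgf and Pcsk1n were higher in knockout A than in knockout B, with log2 differences (B minus A) of -0.45 and -0.21. Scg2, Chgb and Chga went the other way, at 0.42, 0.42 and 0.20. Cpe, Scg3, Pcsk1 and Scg5 differed by 0.06 or less in size between the knockout libraries, and Pcsk2 by 0.13. For 9 of the 10 genes the difference between the group means was larger than the difference between the knockout libraries, and Chgb was the exception.

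The order of levels differed between the groups mainly through Vgf. In knockout brain the order from high to low was Cpe, Scg5, Scg3, Vgf, Scg2, Chga, Chgb, Pcsk1n, Pcsk2 and Pcsk1, and only the Vgf and Scg2 values overlapped as neighbours. In WT brain the order was Cpe, Scg3, Scg5, Chga, Scg2, Chgb, Pcsk2, Pcsk1n, Vgf and Pcsk1, with overlap between Chga and Scg2 and between Pcsk2 and Pcsk1n. Vgf thus held place 4 in knockout brain and place 9 in WT brain.

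Summed over the 7 granin-family genes, RNA amounted to 446 and 459 FPKM in the knockout libraries, against 339.9 and 332 FPKM in the WT libraries. The pools did not overlap and differed by 117 FPKM on average, with a two-sided exact permutation p of 0.333, the smallest that 2 libraries against 2 can give. Vgf made up 17.8% and 12.6% of the pool in the knockout libraries, against 4.73% and 4.18% in the WT libraries. Without Vgf the pool was 367 and 401 FPKM in the knockout libraries, against 324 and 318 FPKM in the WT libraries. The share of Scg3 was 23.2% and 22.3% in the knockout libraries, against 29.0% and 29.6% in the WT libraries, although its own level was nearly the same. The enzymes Pcsk1, Pcsk2 and Cpe together had 542 and 544 FPKM in the knockout libraries, against 464 and 453 FPKM in the WT libraries, nearly all of it Cpe.

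**Figure D3:**
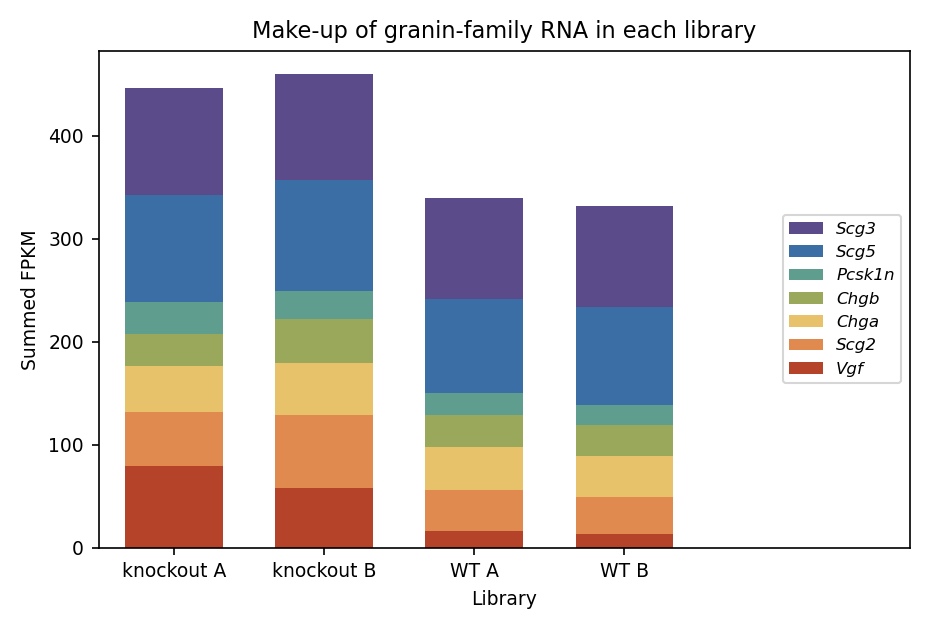
Summed FPKM of the 7 granin-family genes in each library, stacked by gene from Vgf at the bottom to Scg3 at the top. The pools of 446 and 459 FPKM in CIC knockout brain and 339.9 and 332 FPKM in WT brain differ most in the Vgf segment, which is 79.5 and 58.0 FPKM in knockout and 16.1 and 13.9 FPKM in WT.

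Set against their binding proteins, the convertases had lower ratios in the knockout libraries. The ratio of Pcsk1 to Pcsk1n was 0.0556 and 0.0671 in the knockout libraries, against 0.0738 and 0.0753 in the WT libraries. The ratio of Pcsk2 to Scg5 was 0.175 and 0.185 in the knockout libraries, against 0.245 and 0.214 in the WT libraries. The groups did not overlap for either ratio, and the two-sided exact permutation p was 0.333 for each, the smallest possible here. These are ratios of RNA levels and say nothing of protein.

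RefSeq promoter windows (GRCm38.p6) were at hand for 8 of the 10 genes, without Vgf and Cpe, and the 250 bases before the annotated start were read. The cAMP response element TGACGTCA, a palindrome bound by CREB-family factors, was present in 3 of the 8 windows, against 1.55% of 32851 windows of all genes. Its first base lay 68 bases before the start in Scg2, 72 in Chgb and 78 in Pcsk1. The 3 windows are shown because they share this element at nearly the same distance; capitals mark it, and each reads 5′ to 3′ on the gene's own strand. Scg2 is on the minus strand (chr1:79440027-79440276), Chgb on the plus strand (chr2:132781392-132781641) and Pcsk1 on the plus strand (chr13:75089607-75089856).
Scg2: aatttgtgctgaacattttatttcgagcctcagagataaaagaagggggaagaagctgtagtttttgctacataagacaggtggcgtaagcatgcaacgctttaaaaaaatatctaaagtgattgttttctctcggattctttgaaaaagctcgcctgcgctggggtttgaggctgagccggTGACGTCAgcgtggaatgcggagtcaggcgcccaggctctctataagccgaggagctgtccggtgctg
Chgb: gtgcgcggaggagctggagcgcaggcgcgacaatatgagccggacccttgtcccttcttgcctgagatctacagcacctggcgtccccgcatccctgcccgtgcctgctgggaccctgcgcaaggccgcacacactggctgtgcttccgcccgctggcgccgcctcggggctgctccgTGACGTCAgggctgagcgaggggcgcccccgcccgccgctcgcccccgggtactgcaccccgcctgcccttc
Pcsk1: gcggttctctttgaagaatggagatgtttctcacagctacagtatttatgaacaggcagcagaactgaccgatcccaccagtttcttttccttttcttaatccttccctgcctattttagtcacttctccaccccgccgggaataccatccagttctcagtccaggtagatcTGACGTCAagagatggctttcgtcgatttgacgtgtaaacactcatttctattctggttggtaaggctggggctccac
The shorter sequence TGACG, on either strand and including those inside the full element, was in 7 of the 8 windows, all but Pcsk1n, against 17.8% of all windows. None of TGAATGAA, TGAATGGA, TCAATGAA and TCAATGGA, octamers to which CIC is known to bind, was found on either strand of the 8 windows, against 3.19% of all windows with at least 1 of them; this says only that these letters are not in these windows. The motifs were chosen with the sequences already seen. The 3 genes with the full element had log2 differences of 0.68 (Scg2), 0.25 (Chgb) and 0.14 (Pcsk1), and Pcsk1n, which had neither form, had 0.50.

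The genes nearest to Vgf in their pattern over the 4 libraries included the known CIC targets Etv4 and Etv5. Likeness was measured as the distance between log2(FPKM + 1) values centred on their mean, among all tested rows, and the 5 nearest genes were Etv4 (distance 0.45), Spred3 (0.45), Etv5 (0.56), Mid1 (0.59) and Irs4 (0.67). Etv4 and Etv5 encode ETS transcription factors, Spred3 an inhibitor of Ras-ERK signalling, Mid1 a microtubule-associated ubiquitin ligase and Irs4 an adaptor of insulin receptor signalling. Etv4 had 51.4 and 45.0 FPKM in the knockout libraries, against 7.84 and 7.43 FPKM in the WT libraries. Like Vgf, Etv4 and Etv5 were higher in knockout A than in knockout B. Spred3 (38.2 FPKM in knockout A and 40.4 in knockout B), Mid1 (66.0 and 81.2) and Irs4 went the other way. Irs4 had 3.42 and 4.22 FPKM in the knockout libraries, against 0.719 and 0.337 FPKM in the WT libraries. Over 4 libraries in 2 groups, any gene with a large and steady difference comes out near Vgf.

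**Figure D4:**
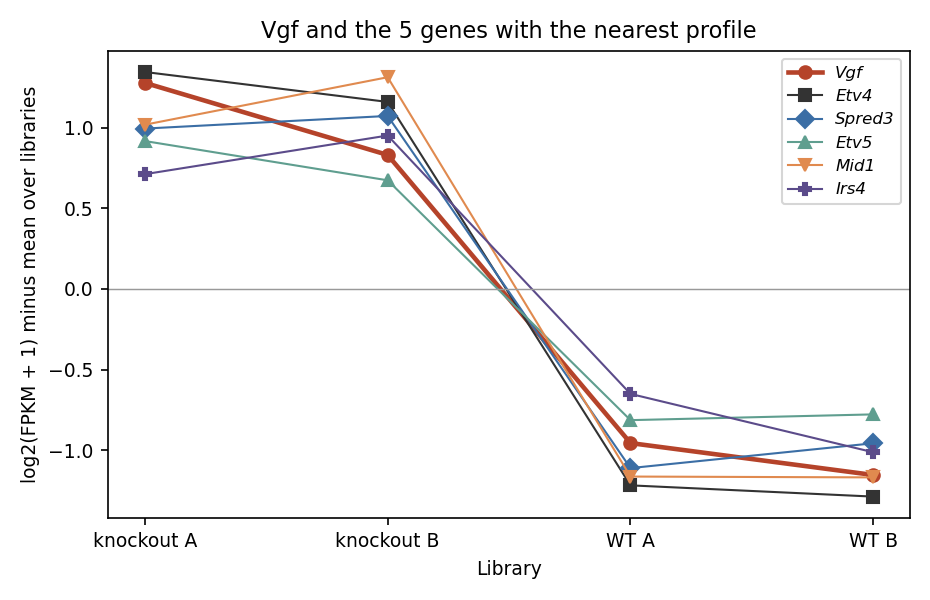
log2(FPKM + 1) of Vgf (thick line) and of the 5 genes nearest to it, each minus its own mean over the 4 libraries. All 6 lie above 0 in both CIC knockout libraries and below 0 in both WT libraries. Vgf, Etv4 and Etv5 are higher in knockout A than in knockout B, and Spred3, Mid1 and Irs4 are higher in knockout B.

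Other processing enzymes differed less than Vgf. Among 21 other processing enzymes, 19 were tested and limma called 0, with 1 at an unadjusted p under 0.05 (10.2% of all rows). Their median log2 difference was 0.10, against 0.02 over all tested rows and 0.23 for the 10 genes. The knockout pair exceeded the WT pair for 9 of the 19 (27.1% of all rows) and lay under it for 2 (21.7%). Ctsl, a cysteine protease that can also cut prohormones in secretory vesicles, had 58.4 and 74.0 FPKM in the knockout libraries, against 43.6 and 46.5 FPKM in the WT libraries (log2 difference 0.54 ± 0.14, SE). Cpxm1, a carboxypeptidase-like protein of the same family as Cpe, had 13.1 and 21.5 FPKM in the knockout libraries, against 10.9 and 12.1 FPKM in the WT libraries. Pam, which amidates peptide ends after Cpe has acted, had 24.6 and 29.6 FPKM in the knockout libraries, on either side of 26.7 and 26.8 FPKM in the WT libraries. Furin, the convertase of the constitutive pathway, had 14.0 and 14.4 FPKM in the knockout libraries, against 13.1 and 13.9 FPKM in the WT libraries. Pam and Furin were chosen after their values were seen.

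Genes for making and releasing dense-core vesicles had small differences. Of 27 listed genes 26 were tested, limma called 0 (3 at an unadjusted p under 0.05, against 10.2% of all rows), and the median log2 difference was 0.05. The knockout pair exceeded the WT pair for 11 of the 26 (27.1% of all rows) and lay under it for 4 (21.7% of all rows). Sorcs3, a sorting receptor of the sortilin family, had 6.27 and 5.92 FPKM in the knockout libraries, against 4.17 and 4.01 FPKM in the WT libraries (log2 difference 0.48 ± 0.09, SE, limma's adjusted p 0.417). Myrip, which links Rab27 on vesicles to myosin, had 3.30 and 4.03 FPKM in the knockout libraries, against 2.23 and 2.27 FPKM in the WT libraries (0.52 ± 0.12, limma's adjusted p 0.418). Both differences were larger than the spread within either pair.

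The peptide precursors that such vesicles carry differed in both directions, with 28 listed, 19 tested and 0 called by limma (7 at an unadjusted p under 0.05, against 10.2% of all rows). The median log2 difference was 0.12, with the knockout pair above the WT pair for 8 of the 19 (27.1% of all rows) and below it for 4 (21.7%). Avp, the vasopressin precursor, had 16.3 and 16.2 FPKM in the knockout libraries, against 4.36 and 0.281 FPKM in the WT libraries. Gal, the galanin precursor, had 4.13 and 5.10 FPKM in the knockout libraries, against 1.73 and 0.971 FPKM in the WT libraries. For both genes the groups were well apart, although the WT libraries also differed between themselves. The cholecystokinin precursor gene Cck, chosen after its values were seen, had 38.4 and 26.4 FPKM in the knockout libraries, against 64.0 and 60.7 FPKM in the WT libraries.

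Genes known to act on granin transcription were more often lower than higher in the knockout pair. Of 12 listed, 11 were tested and limma called 0 (3 at an unadjusted p under 0.05, against 10.2% of all rows), with a median log2 difference of -0.11 and the knockout pair under the WT pair for 5 of the 11 (21.7% of all rows) and above it for 1 (27.1%). Egr1, an immediate early transcription factor, had 4.86 and 5.01 FPKM in the knockout libraries, against 7.16 and 6.30 FPKM in the WT libraries. Ntf3, which encodes neurotrophin-3, had 5.24 and 4.03 FPKM in the knockout libraries, against 6.05 and 6.49 FPKM in the WT libraries. Rest, a repressor of neuronal genes that acts on several granin genes, had 1.78 and 2.24 FPKM in the knockout libraries, overlapping 1.93 and 2.40 FPKM in the WT libraries. Creb1, which encodes the factor that binds the cAMP response element, had 9.24 and 9.41 FPKM in the knockout libraries, against 12.0 and 10.9 FPKM in the WT libraries. Rest and Creb1 were picked once values had been seen. Among receptors reported for VGF peptides, C3ar1 had 0.796 and 2.78 FPKM in the knockout libraries, against 0.775 and 0.916 FPKM in the WT libraries, and C1qbp had 66.0 and 71.4 FPKM, against 69.2 and 68.6 FPKM in the WT libraries.

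Several lists of markers of brain regions and other cells differed in level between the groups. Limma called 0 of the 50 marker rows tested, with 22 at an unadjusted p under 0.05 (10.2% of all rows). In bulk tissue more cells of a type and more RNA per cell cannot be told apart. Of 9 hypothalamic markers, 6 were higher in each knockout library than in either WT library. Only 4 of the 9 passed the filter, and 3 of these were higher in that way (27.1% of all rows tested). Among these 3, Otp had 2.19 and 6.18 FPKM in knockout, against 0.370 and 0 FPKM in WT. Otp passed the filter only through the knockout libraries, so its place in this count was largely set by the filter. The summed level of all 9 was 127 and 183 FPKM in knockout, against 55.4 and 43.3 FPKM in WT, most of it Hap1. Hmx2 and Hmx3, hypothalamic homeobox genes, were listed at 0 in both WT libraries and reached at most 0.672 FPKM in knockout. Without Hap1 the sum over the remaining 8 markers was 31.0 and 24.6 FPKM in knockout, against 14.0 and 13.1 FPKM in WT. Of 8 cortical markers, 7 were lower in each knockout library than in either WT library (21.7% of all rows tested). The 8 summed to 466 and 292 FPKM in knockout, against 645 and 674 FPKM in WT. Hindbrain and cerebellar markers, 7 genes, summed to 28.6 and 76.0 FPKM in the knockout libraries, against 9.61 and 13.3 FPKM in the WT libraries, nearly all of it Zic1 in every library but knockout B. Without Zic1 the remaining 6 summed to 0.0687 FPKM in knockout A and 14.2 FPKM in knockout B, against 0.0973 and 0.252 FPKM in the WT libraries. The hindbrain gene Hoxb3 had 3.55 FPKM in knockout B and was listed at 0 in knockout A. Markers of the pituitary, an endocrine gland rich in granins, were near 0: all 10 together summed to 0.404 and 0.603 FPKM in the knockout libraries, against 0.633 and 0.362 FPKM in the WT libraries, and Gh, Prl, Pou1f1, Cga and Fshb were listed at 0 in all 4.

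Neuronal markers, 8 genes, summed to 2924 and 2624 FPKM in knockout, against 2967 and 2895 FPKM in WT, most of it Tubb3 and Stmn2. Their sum lay lower in knockout B and between the WT values in knockout A. Of the 8, only Syp was above the WT pair (27.1% of all rows), at 153 and 146 FPKM, against 128 and 120 FPKM. Another 2 lay under the WT pair (21.7% of all rows), and 5 overlapped it. Astrocyte markers (7 genes) summed to 559.5 and 593 FPKM in knockout, against 414 and 443 FPKM in WT. Apoe had the highest level and the largest difference among them, at 313 and 379 FPKM in knockout, against 200 and 223 FPKM in WT. Of the 7 genes, 4 were above the WT pair (27.1% of all rows) and 3 overlapped it. Choroid plexus markers (6 genes) summed to 971 and 1040 FPKM in knockout, against 149.97 and 488 FPKM in WT, nearly all of it Ttr. The 6 microglial markers summed to 59.0 and 94.7 FPKM in knockout, against 45.3 and 52.9 FPKM in WT, with most of it from C1qa and C1qb. Of the 6, 3 were above the WT pair (27.1% of all rows) and 3 overlapped it. The 6 markers of meninges and vessels summed to 144 and 147 FPKM in knockout, against 101 and 132 FPKM in WT. Of these, 4 were above the WT pair (27.1% of all rows) and 2 overlapped it. The 5 rows of the blood list summed to 9.53 and 703 FPKM in knockout, against 194 and 129 FPKM in WT, but both Hba-a1 rows are listed at 0 in knockout A, which can be a failed estimate. Without them the remaining 3 rows summed to 9.53 and 44.8 FPKM in knockout, against 9.12 and 7.74 FPKM in WT. The part of the region, choroid plexus, astrocyte, microglial, meningeal and blood markers in the granin values was not tested.

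**Figure D5:**
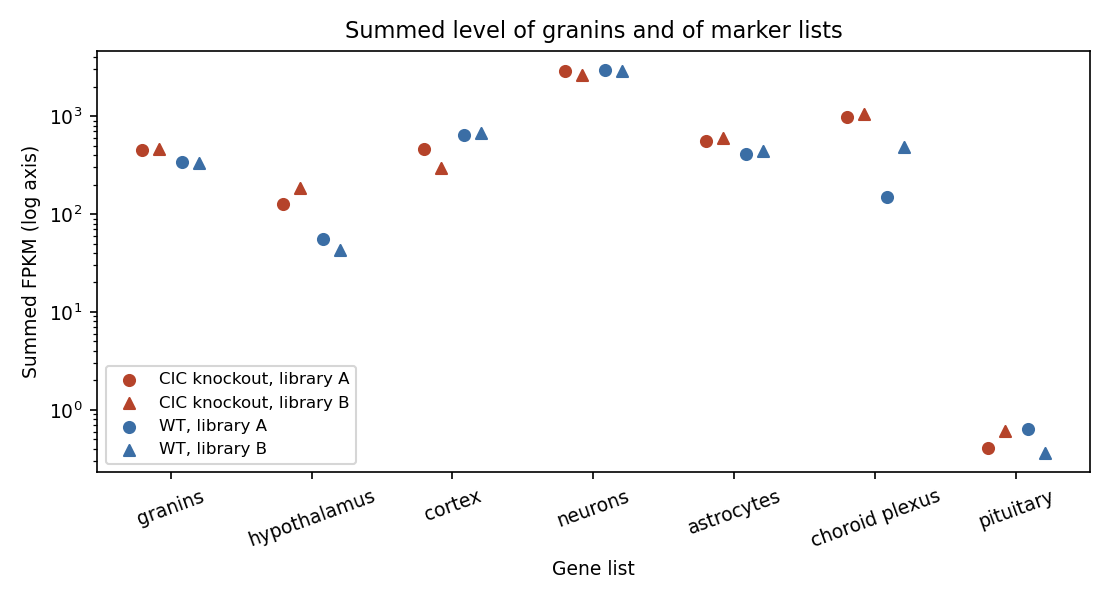
Summed FPKM (log axis) of the 7 granin-family genes and of marker lists in each library, with circles for library A and triangles for library B. Hypothalamic sums are 127 and 183 FPKM in CIC knockout and 55.4 and 43.3 FPKM in WT, cortical sums are lower in knockout (466 and 292 FPKM, against 645 and 674 FPKM in WT), and the highest pituitary sum is 0.633 FPKM, in WT A.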

How the data were processed

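Brain RNA was measured by RNA-seq in 4 libraries, 2 CIC knockout and 2 WT. Per the submitters' processing notes, the mm9 build was used with Cufflinks 2.1.1, TopHat2 2.0.11, cutadapt and bcl2fastq 2.17, in no stated order; strandedness and RNA selection are not given in the sources used. The authors deposited FPKM, with 1 value for each gene in each library; that unit is read from the use of Cufflinks and from the values. The table gives no counts, so depth is unknown beyond relative depth, read from the most common ratio of values under 0.15 FPKM. Coordinates are the table's own in mm9, with 1 added to the start; promoter windows are RefSeq's in GRCm38.p6, and no coordinate was moved between builds.

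Values were tested as log2(FPKM + 1) in limma 3.58.1 under R 4.3.3 (lmFit and eBayes, trend and robust off), knockout against WT, two-sided, on the 12703 rows with a mean FPKM of 1 or more, adjusted by Benjamini-Hochberg over all of them. The fit had 2 residual and 2.63 prior degrees of freedom. Differences on this scale are understated for low genes. Sums and ratios were compared by exact permutation. The calculation was tested on simulated data. The alternatives were a pseudocount of 0.1 or 5, no filter or a minimum mean of 5, rescaling, limma's trend, the library letter as a block and leaving out each library; leaving out the 13 rows with a 0 in some library beside at least 10 FPKM elsewhere was added after seeing the data.

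The 10 genes and all lists were chosen with earlier results of these data known. All 10 were described; from each other list the genes past the threshold were named, or else the 2 with the largest difference. Marker lists are given as sums, with examples chosen after their values were seen, and other such names are marked. A gene of the hindbrain list is not reported here. Python 3.11.15, scipy 1.17.1 and matplotlib 3.10.9 were used for sums, permutations and plots.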

Additional observations from a re-analysis of the deposited data

How the results depend on the processing

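All 10 genes kept their direction under every one of the alternatives run (12 each, 11 for Pcsk1, which a filter at a mean of 5 FPKM removes). The log2 difference of Vgf ran from 1.87 to 2.34. With both libraries of each group kept, limma's adjusted p for Vgf lay between 0.0212 and 0.353. Among these fits only that with the library letter as a replicate block called Vgf, at a difference of 2.11 and an adjusted p of 0.0212. Of the 10 genes, 1 was then called higher, against 4 of 12703 rows called higher and 7 called in either direction. The labels do not say whether the letters pair the libraries. The A minus B differences of the 2 groups had a correlation of -0.01 across rows. With 1 such difference in each group, this cannot settle whether they are paired. Leaving out 1 library gave 1.89 to 2.34 for Vgf, with 2.21 without WT A and 2.01 without WT B. Over the whole table limma called 3 rows higher and 3 lower. Rows called higher numbered 1 with a pseudocount of 0.1, 1 with no filter and 0 with rows listed at 0 left out (0 lower there too, and 1299 rows at an unadjusted p under 0.05). Leaving out 1 library gave 1 to 2269 higher and 3 to 2036 lower. The difference of 117 FPKM in the granin pool was 112 after rescaling and 110.3 to 123 with 1 library left out.

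With 2 libraries a group and no counts, the 95% intervals of Chga, Chgb, Scg3, Scg5, Pcsk1 and Pcsk2 include 0. The cause of the differences between the knockout libraries was not tested.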
